A study of Mus musculus with 11 samples.

Results

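The elastic fibre genes examined here were 10 genes of the mouse liver table: elastin (Eln), the fibrillins Fbn1 and Fbn2, the fibulins Fbln5, Efemp1 and Efemp2, the microfibril-associated proteins Mfap2, Mfap4 and Mfap5, and the interface protein Emilin1. They were chosen by name, for their place in the elastic fibre, from the 46603 genes of the table, and each was found once. In livers of mice given INT-767, 6 of the 9 members with enough reads to test were lower than with vehicle at an edgeR adjusted p under 0.05, as 4.68% of all 13880 tested genes were, and none was higher (5.04% of all genes). Of these 6, the low-abundance genes Fbn2 and Mfap2 passed the filter on low counts through vehicle mice alone, so that the filter itself favoured a lower treated level, and 4 of the 7 members that passed it with a treated mouse (Eln, Fbn1, Mfap4 and Fbln5) were called lower, against 4.21% of all genes that did so. Efemp1, the most abundant member per kilobase, was the exception, with a mean that was 1.23 times the vehicle mean and did not pass the test.

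Elastic fibres give tissues their recoil. Cells first lay down microfibrils of fibrillin, decorated by microfibril-associated glycoproteins. Fibulins then bring soluble tropoelastin to this scaffold, and lysyl oxidases crosslink it into an insoluble core. In liver, elastic fibres are known from portal tracts and vessel walls, and they accumulate in fibrous septa as scarring advances, where portal fibroblasts and activated stellate cells are regarded as their sources. Microfibrils also hold latent TGF-beta in the matrix.

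The study measured whole-liver RNA of male mice of the strain B6.V-Lep ob/JRj (ob/ob), which lack leptin, fed the AMLN diet, which is high in fat, fructose and cholesterol, as a model of metabolic dysfunction-associated steatohepatitis (MASH). INT-767 is a semisynthetic bile acid and an agonist of FXR and TGR5. It was given by oral gavage at 10 mg/kg once daily for 8 weeks to 4 mice, and 7 mice received the gavage vehicle. Both groups carried the ob/ob genotype, were 5 to 6 weeks old when the diet began, had 15 weeks of diet before treatment and stayed on it throughout, and no lean or chow-fed liver is among the samples analysed here, so that the comparison is with vehicle-treated diseased livers and not with healthy ones. All mice had a liver biopsy before allocation, which admitted only animals with steatosis and fibrosis. The deposited values are reads counted per gene. Total counts were between 7966963 and 15295230 with vehicle and between 7381211 and 16022459 with INT-767. Levels below are counts per 1000000 reads (CPM), scaled by edgeR's TMM factors, and levels of different genes are compared only per kilobase of exon (RPKM). Each mouse is 1 sample. The labelled tissue was checked against hepatocyte markers, with the most reads on Alb (albumin), which were abundant in all 11 livers.

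The libraries stood apart from each other in a way that partly crossed and partly followed the treatment groups. The first principal component held 60.8% of the variance between mice. In 4 of them (Vehicle 1, Vehicle 7, INT-767 2 and INT-767 4) a gene's level relative to the mean of all mice fell with the length of its transcript, with Spearman coefficients across 13840 genes of -0.18, -0.23, -0.30 and -0.32. In the other 7 it rose with length, with coefficients between 0.09 and 0.31. The coefficients with GC content ranged from -0.42 in Vehicle 1 to 0.44 in Vehicle 3, and were -0.06, -0.26, -0.16 and -0.24 in INT-767 mice 1 to 4. On the first component INT-767 mice 1 to 4 were at 2.76, -65.9, -6.39 and -84.2. Vehicle mice 2 to 6 were at 16.5, 43.5, 42.7, 57.1 and 51.5, and Vehicle 1 and 7 at -39.4 and -18.1. Treatment and the differences between libraries can therefore not be fully told apart. The coefficients are descriptions across genes, which are not independent, and what set the libraries apart was not tested. Fold changes between the groups also declined with transcript length (rho = -0.24) and with GC content (rho = -0.30), and elastic fibre genes include long ones: the longest annotated transcript is 11971 bases for Fbn1 and 11041 for Fbn2, against 1073 for Mfap2. The results of the members are therefore also given within each set of mice and with the set as a term in the fit. They are also given with a per-library correction (an offset) for GC content and transcript length. Those of the related genes and the cell type markers come from the fit over all mice alone.

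Elastin itself was lower in every treated liver than in every vehicle liver. Eln (ENSMUSG00000029675, chr5:134702593-134747323 on the minus strand, GRCm38) was at 3.88, 7.34 and 11.2 CPM in the lowest, the median and the highest of the 7 vehicle mice, and at 2.47, 1.24, 3.51 and 3.37 CPM in INT-767 mice 1 to 4. The vehicle mean was 7.27 ± 2.76 CPM (SD, n = 7), the INT-767 mean was 2.65 ± 1.04 CPM (SD, n = 4), and the groups did not overlap. The log2 fold change was -1.44 (SE 0.36, 95% interval -2.21 to -0.67, edgeR adjusted p = 0.0283). By the exact Mann-Whitney test (two-sided) p was 0.00606, the smallest that the 330 assignments of 4 of 11 mice allow. Vehicle 5 and Vehicle 6 had the highest elastin levels, and INT-767 2 had the lowest, with 9 reads. In whole-liver RNA, fewer cells of a type and less RNA per cell cannot be told apart, here and for the other genes.

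Both fibrillins, the backbone of the microfibril, were lower with INT-767. Fbn1 (ENSMUSG00000027204, chr2:125300594-125507993, minus strand), the principal fibrillin of adult tissue, was at 11.2, 17.4 and 31.1 CPM in the lowest, median and highest vehicle mouse and at 6.22, 3.59, 9.84 and 13.99 CPM in INT-767 mice 1 to 4. The means were 19.8 ± 6.87 CPM (SD, n = 7) and 8.41 ± 4.52 CPM (SD, n = 4). INT-767 4 lay above 1 vehicle mouse, Vehicle 2, and the other 3 treated mice lay below all vehicle mice. The fold change was -1.23 on the log2 scale (SE 0.36, edgeR adjusted p = 0.0486; exact Mann-Whitney p = 0.0121), so that the call lay close to the threshold of 0.05. With the offset for GC content and length it shrank to -0.52 (edgeR adjusted p = 0.343), the largest move of any member with this offset.

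Fbn2 (ENSMUSG00000024598), the fibrillin known best from developing tissue, had the lowest level per kilobase of the members tested, and its reads reached the level the filter asks for (0.919 CPM on raw totals, in at least 4 mice) in 6 vehicle mice and in no treated mouse. Its 138 reads in the vehicle group corresponded to 0.659, 1.69 and 2.83 CPM in the lowest, median and highest mouse, and its 12 reads in the treated group to 0.317, 0, 0.703 and 0.15 CPM in mice 1 to 4. INT-767 3 exceeded Vehicle 2, and all other treated mice were below every vehicle mouse. The 0 in INT-767 2 allows up to 0.414 CPM (3 reads in that mouse), a limit that covers counting error only. The log2 fold change was -2.54 (SE 0.60, 95% interval -3.83 to -1.24, edgeR adjusted p = 0.0239; exact Mann-Whitney p = 0.0121).

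Among the microfibril-associated proteins, Mfap2 and Mfap4 fell and Mfap5 was barely detected. Mfap2 (ENSMUSG00000060572, chr4:141010418-141015984, plus strand) encodes MAGP-1, a small glycoprotein bound along fibrillin microfibrils. It was at 0.878, 1.46 and 2.32 CPM in the lowest, median and highest vehicle mouse and at 0.19, 0.276, 0.843 and 0.524 CPM in INT-767 mice 1 to 4. The highest treated mouse stayed just below the lowest vehicle mouse. The means were 1.504 ± 0.435 CPM (SD, n = 7) and 0.458 ± 0.293 CPM (SD, n = 4), and the log2 fold change was -1.77 (SE 0.42, 95% interval -2.68 to -0.87, edgeR adjusted p = 0.0237; exact Mann-Whitney p = 0.00606). Only 125 reads in the vehicle group and 18 in the treated group lay behind these values, and, as for Fbn2, 6 vehicle mice and no treated mouse reached the level of the filter.

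Mfap4 (ENSMUSG00000042436, chr11:61485431-61488900, plus strand) encodes a fibrinogen-domain protein that binds tropoelastin and fibrillin. It was at 3.07, 5.07 and 7.47 CPM in the lowest, median and highest vehicle mouse and at 2.16, 2.07, 1.83 and 3.22 CPM in INT-767 mice 1 to 4. Only INT-767 4 reached the vehicle range, above Vehicle 2. INT-767 changed it by -1.08 on the log2 scale (SE 0.27, edgeR adjusted p = 0.0283; exact Mann-Whitney p = 0.0121). Mapk7, which overlaps 4.63% of the exon bases of Mfap4 on the opposite strand, had 406 reads with vehicle and 110 with INT-767, much like the 400 and 105 of Mfap4. Whether the counting used strand is not given in the sources used here, and how many reads the 2 genes share was not tested.

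Mfap5 (ENSMUSG00000030116, chr6:122505845-122529290, plus strand), which encodes the related MAGP-2, had no read in any vehicle mouse, where 3 reads would correspond to between 0.175 and 0.380 CPM. In the treated group it had 5 reads in INT-767 1 (0.317 CPM), 9 in INT-767 4 (0.673 CPM) and none in the other 2 mice. It did not pass the filter on low counts, and the exact Mann-Whitney test gave p = 0.109. A difference was not detected at these few reads.

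The fibulins, short glycoproteins that assemble tropoelastin onto microfibrils, had fold changes of both signs. Of the 3, 1 was called lower, against 4.68% of all tested genes. Fbln5 (ENSMUSG00000021186, chr12:101746565-101819055, minus strand), fibulin-5, which binds both elastin and cell-surface integrins, was the steadiest member, with a coefficient of variation of 13.6% over the vehicle mice. It was at 14.9, 16.1 and 21.5 CPM in the lowest, median and highest vehicle mouse and at 11.8, 7.45, 11.5 and 11.8 CPM in INT-767 mice 1 to 4. Every treated mouse was below every vehicle mouse, and INT-767 2 stood well below the other 3. Its log2 fold change was -0.70 (SE 0.17, 95% interval -1.07 to -0.33, edgeR adjusted p = 0.0259; exact Mann-Whitney p = 0.00606). With the offset it was -0.43 (edgeR adjusted p = 0.107).

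Efemp2 (ENSMUSG00000024909, chr19:5473954-5482517, plus strand), fibulin-4, which links lysyl oxidase to tropoelastin, had a fold change as large as that of Fbln5 but missed the threshold. It was at 5.93, 9.86 and 12.7 CPM in the lowest, median and highest vehicle mouse and at 5.39, 5.25, 6.61 and 6.21 CPM in INT-767 mice 1 to 4. INT-767 3 and INT-767 4 lay above the lowest vehicle mouse, Vehicle 2, and below the other 6. The log2 fold change was -0.71 (SE 0.21, 95% interval -1.18 to -0.25, edgeR adjusted p = 0.0533; exact Mann-Whitney p = 0.0242), and with the offset it was -0.61 and passed (edgeR adjusted p = 0.0448).

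Efemp1 (ENSMUSG00000020467, chr11:28853204-28926743, plus strand), fibulin-3, a fibulin also found at basement membranes, had the opposite sign. It was at 21.6, 26.6 and 47.0 CPM in the lowest, median and highest vehicle mouse and at 26.6, 29.5, 32.6 and 61.7 CPM in INT-767 mice 1 to 4. The 3 highest levels were in INT-767 4, Vehicle 1 and Vehicle 7, all among the 4 mice whose levels fell with transcript length, and the remaining 8 mice lay between 21.6 and 32.6 CPM. The log2 fold change was 0.30 (SE 0.28, 95% interval -0.30 to 0.90, edgeR adjusted p = 0.445; exact Mann-Whitney p = 0.230).

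Emilin1 (ENSMUSG00000029163, chr5:30913402-30921277, plus strand), a glycoprotein at the interface of elastin and microfibrils that also restrains TGF-beta processing, had the most reads of the 10 members. It was at 41.1, 57.1 and 81.7 CPM in the lowest, median and highest vehicle mouse and at 32.5, 25.9, 47.8 and 47.1 CPM in INT-767 mice 1 to 4. The upper 2 treated mice overlapped with the lower vehicle mice. Its log2 fold change of -0.64 (SE 0.23, 95% interval -1.13 to -0.14) came with an edgeR adjusted p of 0.0857 and an exact Mann-Whitney p of 0.0727.

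**Figure D1:**
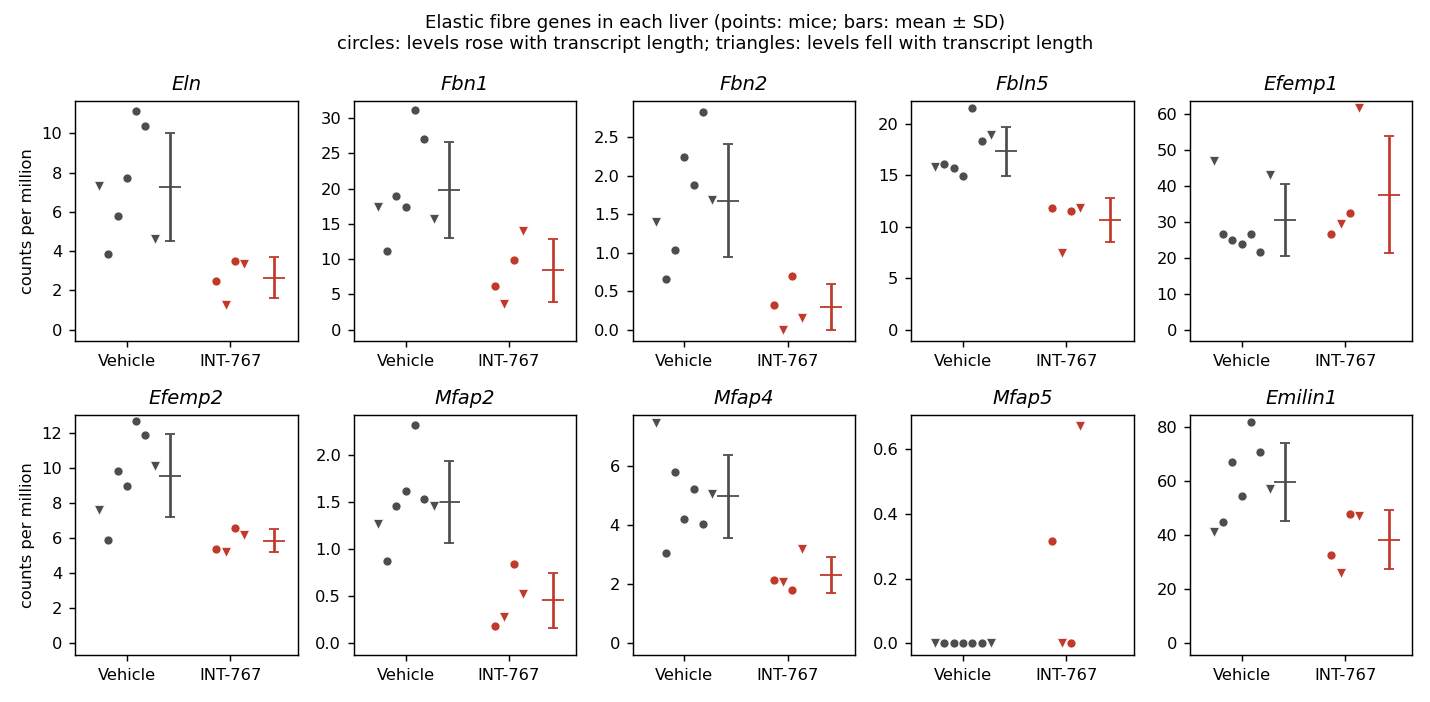
Levels of the 10 elastic fibre genes in each liver, in CPM on a linear axis for each gene; each point is a mouse, and bars beside the points give the mean ± SD of the 7 vehicle and 4 INT-767 mice (no bar for Mfap5). Triangles mark the 4 mice whose levels fell with transcript length. The groups of Eln, Fbln5 and Mfap2 do not overlap, and the 3 highest Efemp1 values are all triangles.

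Counted together, 6 of the 9 tested members were called lower by edgeR and 0 were called higher. No member was higher at an unadjusted p under 0.05 either, by edgeR, limma-voom or DESeq2. At an unadjusted p under 0.05, 8 of the 9 were lower, against 15.6% of all genes. The groups of 3 members (Eln, Fbln5 and Mfap2) did not overlap, lower with INT-767, against 3.64% of all genes. The fold change was below 0 for 8 of the 9, against 50.6% of all genes, and the median of the 9 was -1.08 on the log2 scale, against -0.01 over all tested genes. The members were chosen by name with earlier results of these data known, so these counts describe them and are no test of the list, and the counts and the median include Fbn2 and Mfap2, which the filter let through on their vehicle levels alone (2.28% of all tested genes were such genes).

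In both sets of libraries the same 8 members had fold changes below 0, with sizes that differed, and Efemp1 was at 0.26 and -0.013. Within each set the treated mice still lay below all vehicle mice on the first component. They were at 2.76 and -6.39 against 16.5 to 57.1 where levels rose with length. Where levels fell, they were at -65.9 and -84.2 against -39.4 and -18.1. The split by set can therefore not tell treatment apart from the differences between libraries. Among the 7 mice whose levels rose with transcript length (5 vehicle, 2 INT-767), the treated mice lay below all vehicle mice for 5 of the 9 members (16.2% of all genes), namely Eln, Fbn1, Fbln5, Mfap2 and Mfap4. Among the other 4 mice (2 against 2) they did so for 7 members (26% of all genes), the same 5 with Fbn2 and Efemp2. Fits on these sets called Eln, Fbn1 and Mfap4 lower in the first (3 members, 6.12% of genes) and Fbn2 in the second (1 member, 0.693% of genes), where it had 0 and 2 reads in the treated mice and the filter let it through on its vehicle levels alone, so that no member with a treated mouse above the filter was called there. With the set as a term in the fit over all 11 mice, 8 members were called lower (14.4% of genes), all but Efemp1. With the offset for GC content and length, 5 were called lower (5.96% of genes): Eln at -1.15, Fbn2 at -2.07, Mfap2 at -1.94, Mfap4 at -1.11 and Efemp2 at -0.61 on the log2 scale. The counts in this paragraph include Mfap2 and, where named or called, Fbn2, which passed the filter over all 11 mice through vehicle mice alone. Apart from these 2 genes, the members called lower with the offset were Eln, Mfap4 and Efemp2.

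**Figure D2:**
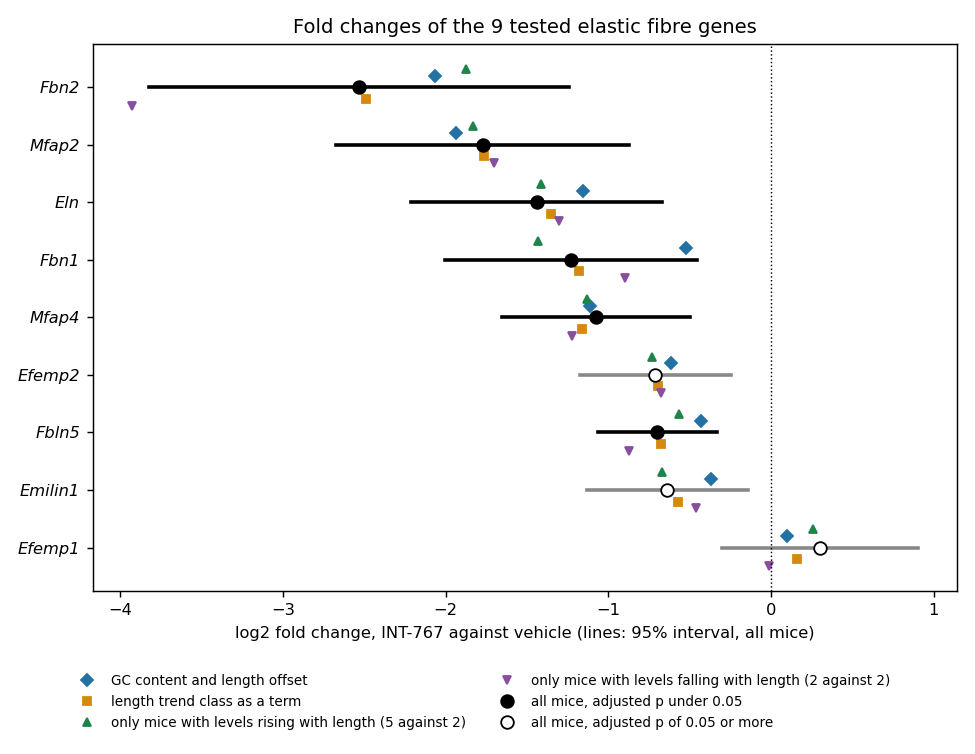
Log2 fold changes of the 9 tested members, INT-767 against vehicle; black circles with lines give the value and 95% interval over all 11 mice, filled where the edgeR adjusted p was under 0.05. Smaller symbols give the value with the offset for GC content and length, with the length trend class as a term, and within each of the 2 sets of mice. Fbn1 moves most towards 0 with the offset, to -0.52, and Efemp1 lies near 0 or above it in every fit shown.

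The calls also rested on single mice. Vehicle 5 had the highest level of all mice for 6 of the 9 tested members and INT-767 2 the lowest for 6. Without INT-767 2 no member passed the threshold (edgeR, 7 of the 9 lower at an unadjusted p under 0.05, against 10.1% of the 14349 genes tested without it), without Vehicle 5 only Fbn2 and Mfap2 did, and without Vehicle 6 only Fbn2, Mfap2 and Mfap4. Since Fbn2 and Mfap2 passed the filter through vehicle mice alone, no other member kept its call without Vehicle 5, and Mfap4 alone did without Vehicle 6. The number of all genes called lower fell from 649 to 110, 284 and 267 in the same 3 fits. All 8 members below 0 stayed below 0 whichever mouse was left out, with Eln between -1.59 and -1.24, Fbn1 between -1.61 and -1.01 and Mfap2 between -2.14 and -1.45 on the log2 scale.

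Per kilobase of exon, 2 members made up most of the elastic fibre message. Efemp1 was at 15.002 RPKM (mean, n = 7) with vehicle and 18.5 (n = 4) with INT-767, and Emilin1 at 12.1 and 7.77. A middle tier with vehicle means close to each other was formed by Mfap4 (2.60 and 1.21), Efemp2 (2.53 and 1.55) and Fbln5 (2.51 and 1.54), whose vehicle SDs of 0.736, 0.620 and 0.341 RPKM exceed the steps between them. Below them came Fbn1 (1.64 and 0.693), Mfap2 (1.24 and 0.379) and Eln (0.898 and 0.327), again with neighbours within an SD of each other, and then Fbn2 (0.127 and 0.022). Of the summed RPKM of the 10 members, the share of Efemp1 was 38.7% ± 9.90 (SD, n = 7) in vehicle mice and 56.8% ± 6.79 (SD, n = 4) in treated mice, while Eln held 2.32% ± 0.791 and 1.03% ± 0.325. The summed RPKM of all 10 averaged 38.6 with vehicle and 32.02 with INT-767, and INT-767 4, at 47.1, had the highest sum of all 11 mice. Without Efemp1 the sums averaged 23.6 and 13.6.

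Promoter sequences of the reference genome are shown for Mfap2 of the microfibril and Fbln5 of the fibulins, whose groups did not overlap, and for Efemp1, whose groups did. RefSeq (GRCm38.p6) windows of 250 bases before to 50 bases after a start matched 6 of the 10 members, with 10 windows in all, and the stretch before the start is printed as far as it lies outside the annotated exons of the gene. Capitals mark matches, on either strand, to any of 6 short motifs. The letters searched were TATAAA for the core promoter element bound by the TATA-binding protein, GGGCGG for the GC box, TGACTCA for AP-1, CAGACA for SMAD proteins, AGGTCA for nuclear receptors (the family of FXR) and CATTCC for TEAD factors. The stretches lie at chr12:101819120-101819369 on the minus strand for Fbln5, chr4:141010174-141010417 on the plus strand for Mfap2 and chr11:28852955-28853203 on the plus strand for Efemp1.
Fbln5: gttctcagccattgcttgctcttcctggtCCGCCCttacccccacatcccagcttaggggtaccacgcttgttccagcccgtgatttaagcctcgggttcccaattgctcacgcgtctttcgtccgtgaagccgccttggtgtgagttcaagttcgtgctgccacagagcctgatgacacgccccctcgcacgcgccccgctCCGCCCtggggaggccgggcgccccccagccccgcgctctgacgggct
Mfap2: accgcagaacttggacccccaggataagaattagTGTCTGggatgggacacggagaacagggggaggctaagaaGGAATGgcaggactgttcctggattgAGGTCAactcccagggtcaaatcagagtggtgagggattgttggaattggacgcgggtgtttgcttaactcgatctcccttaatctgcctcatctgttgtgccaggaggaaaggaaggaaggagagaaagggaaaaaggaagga
Efemp1: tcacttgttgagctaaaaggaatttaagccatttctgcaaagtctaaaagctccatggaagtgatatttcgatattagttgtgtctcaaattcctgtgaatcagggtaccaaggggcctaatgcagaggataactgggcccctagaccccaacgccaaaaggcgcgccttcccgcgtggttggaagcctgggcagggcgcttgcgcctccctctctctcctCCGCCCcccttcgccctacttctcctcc
The Fbln5 stretch held 2 GC boxes, beginning 221 and 48 bases before the start, and the Efemp1 stretch held 1, beginning 29 bases before it. The Mfap2 stretch held 1 SMAD, 1 TEAD and 1 nuclear receptor motif, beginning 216, 176 and 150 bases before the start, and no 2 of these matches overlapped. A second annotated Mfap2 start further downstream had 2 GC boxes and 1 nuclear receptor motif in its window. A second Fbln5 window held 1 SMAD and 1 nuclear receptor motif, beginning 15 bases and 1 base before that start. Over all 10 windows of the 6 members, 7 held a GC box (35.7% of the 32851 windows of all genes), 3 the SMAD motif (21%), 4 the nuclear receptor motif (16.3%), 1 the TEAD motif (14.7%), and none the TATA-binding protein motif (13.6%) or the AP-1 motif (5.2%). Windows of 1 gene can overlap. A match is a description of the letters, not a binding site, and no match says only that these letters are not in the window.

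Genes that crosslink, organise or degrade elastic fibres were examined in 7 further lists of 47 genes, of which 42 were tested. With INT-767, 12 of the 42 were called lower (4.68% of all tested genes) and 0 higher (5.04%), 36 had a fold change below 0 (50.6% of all genes), and the median was -0.66 on the log2 scale, against -0.01 over all genes. These counts and the median include Prtn3, which was called lower but passed the filter on low counts through vehicle mice alone. The 5 genes with too few reads to test lay on both sides. Mmrn1 (multimerin-1), with 15 reads in the vehicle group and 31 in the treated group, was higher in every treated mouse (0.422 to 1.66 CPM) than in every vehicle mouse (0 to 0.362; exact Mann-Whitney p = 0.00606, unadjusted). Adamts17 had 6 and 11 reads (exact p = 0.0364), whereas Mmp9 had 51 and 12 (exact p = 0.0424), Elane 20 and 2 (exact p = 0.227) and Emilin3 3 and 0 (exact p = 0.321). The lists were written with earlier results of these data known.

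All 5 lysyl oxidases, the enzymes that crosslink elastin and collagen, had fold changes below 0 (50.6% of all tested genes). Of these, 2 were called lower (4.68% of all tested genes). Loxl2 averaged 10.5 ± 3.73 CPM (SD, n = 7) with vehicle, fell to 3.28 ± 1.503 CPM (SD, n = 4; -1.63 on the log2 scale, edgeR adjusted p = 0.0168) and did not overlap between the groups. Loxl1, the family member tied most closely to elastic fibre upkeep, fell from 12.9 ± 2.77 to 5.65 ± 2.95 CPM (-1.20 on the log2 scale, edgeR adjusted p = 0.0291). Lox itself was at 1.02, 0.69, 0.843 and 5.01 CPM in INT-767 mice 1 to 4 against 2.86 to 7.22 CPM with vehicle, and did not pass (edgeR adjusted p = 0.155): 3 treated mice lay below all vehicle mice and INT-767 4 above 6 of the 7.

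Of the 7 other fibulins and latent TGF-beta binding proteins, matrix glycoproteins several of which bind fibrillin, 3 were called lower (4.68% of all tested genes). Ltbp2, a fibrillin-1 binding protein of elastic tissue, had the steepest fall of this list, from 14.9 ± 9.54 CPM (SD, n = 7) to 3.14 ± 1.58 (SD, n = 4; -2.22 on the log2 scale, edgeR adjusted p = 0.0339). Fbln2 fell by 1.41 on the log2 scale without overlap (edgeR adjusted p = 0.0236), and Ltbp3 fell by 1.24 (edgeR adjusted p = 0.0476). Of the EMILIN family, Emilin2 fell by 1.95 on the log2 scale (edgeR adjusted p = 0.0306). Beside it and Emilin1, Mmrn2 had enough reads to test, at -0.30, while the few reads of Mmrn1 lay in the opposite direction. Of the 6 tested ADAMTS-like and related genes, whose products bind fibrillin, Thsd4 (ADAMTSL6), which promotes fibrillin-1 assembly, fell by 1.84 (edgeR adjusted p = 0.0151).

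Of the 7 tested elastin-degrading enzymes 4 were called lower (4.68% of all tested genes), or 3 of 6 without Prtn3, which passed the filter through vehicle mice alone, while their list summed to 1095 ± 140 CPM (SD, n = 7) in vehicle mice and to 1110 ± 345 (SD, n = 4) in treated mice. Most of that sum was Ctsl, cathepsin L, at 804 ± 122 and 934 ± 362 CPM (0.22 on the log2 scale, edgeR adjusted p = 0.495). Ctss, cathepsin S of macrophages, fell from 155 ± 16.7 CPM (SD, n = 7) to 82.9 ± 15.7 (SD, n = 4), without overlap (-0.90 on the log2 scale, edgeR adjusted p = 0.0057). Ctsk, cathepsin K, changed by -0.77 (edgeR adjusted p = 0.0274) and Mmp2, gelatinase A, by -1.14 (edgeR adjusted p = 0.0331). Prtn3, a neutrophil serine protease, fell by 3.20 on the log2 scale (edgeR adjusted p = 0.0045) but from only 127 reads to 7. Mmp12, macrophage elastase, was at 50.6 ± 11.3 CPM with vehicle and 34.2 ± 16.1 with INT-767 and did not pass (edgeR adjusted p = 0.187), nor did Mmp7, matrilysin, at -0.23 (edgeR adjusted p = 0.810). Among the 4 proteoglycans that bind microfibrils, Bgn (biglycan) fell by 1.10 on the log2 scale (edgeR adjusted p = 0.0467), whereas Dcn (decorin), the most abundant, was at 471 ± 73.7 and 549 ± 179 CPM. None of the 11 integrins and elastin receptor genes was called, and their median was -0.24. Itgb1, the highest of them per kilobase, had a log2 fold change of 0.47 (edgeR adjusted p = 0.256).

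**Figure D3:**
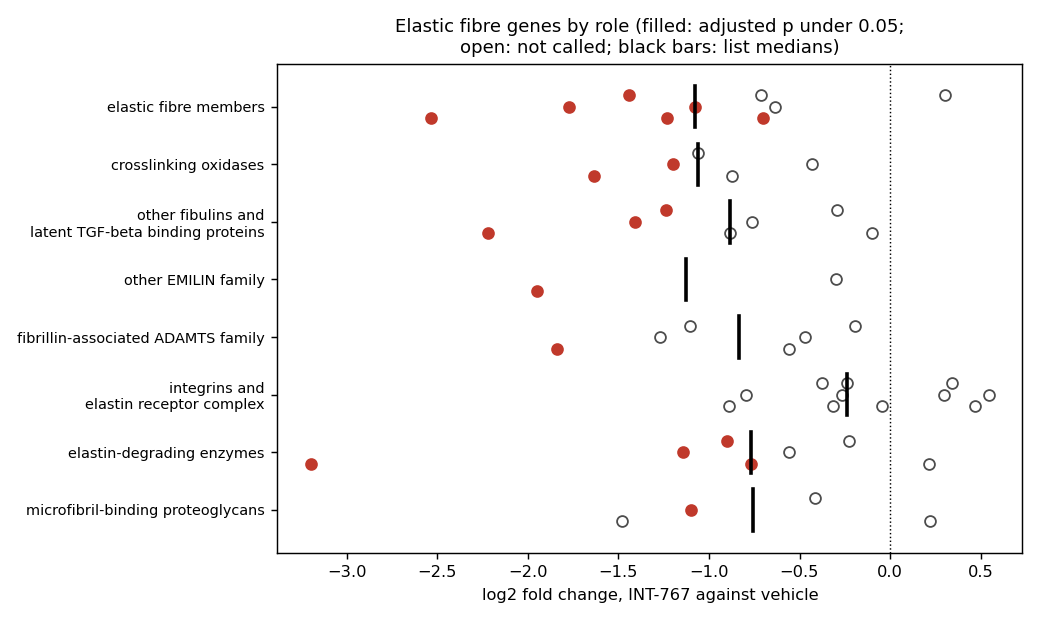
Log2 fold changes, INT-767 against vehicle, of the tested genes of the elastic fibre members and of 7 lists of related genes by role; each circle is a gene, filled where called lower, and black bars are list medians. No gene in any list is called higher, and the integrin and receptor list holds no called gene.

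Markers of the cells that could make elastic fibres moved unevenly. The 8 myofibroblast markers, with the most reads on Col3a1, summed to 316, 654 and 1237 CPM in the lowest, median and highest vehicle mouse and to 187, 76.6, 216 and 295 CPM in INT-767 mice 1 to 4, without overlap. Of the 7 tested, 3 were called lower (Col1a1, Col1a2 and Pdgfrb), against 4.68% of all tested genes, while Acta2 and Tagln, the contractile markers, had log2 fold changes of -0.63 and -0.31 and did not pass. Cthrc1, a marker of scar-forming fibroblasts, had 2 reads in the vehicle group and 0 in the treated group. Vehicle 5 and Vehicle 6, which had the 2 highest levels of Eln, Fbn1, Efemp2 and Emilin1, also had the 2 highest myofibroblast sums. INT-767 2 had the lowest myofibroblast sum and the lowest levels of these members. For Fbn2, Mfap2, Mfap4, Fbln5 and Efemp1 the 2 highest mice were not this pair.

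The 8 quiescent stellate cell markers, with the most reads on Reln, summed to 227, 305 and 439 CPM in the lowest, median and highest vehicle mouse and to 356, 257, 291 and 323 CPM in the treated mice, with 0 of 8 called (of all tested genes, 4.68% were called lower and 5.04% higher). The 8 portal fibroblast markers, with the most reads on Gas6, averaged 299.9 ± 23.0 CPM (SD, n = 7) and 215 ± 78.8 (SD, n = 4), with 0 of 5 tested genes called, and INT-767 1 and 2 (141 and 153 CPM) stood below the vehicle range of 266 to 339. Smooth muscle markers averaged 17.6 ± 8.08 and 9.84 ± 6.49 CPM with 0 of 4 called, endothelial markers 158 ± 51.2 and 108 ± 31.0 CPM with Vwf called lower, and mesothelial markers 14.8 ± 4.21 and 21.1 ± 2.94 CPM with Lrrn4 called higher. No gene of these lists was at 0 in all mice.

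Of the remaining cell types, the 6 macrophage markers, with the most reads on Gpnmb, averaged 356 ± 67.5 CPM (SD, n = 7) and 215 ± 64.5 (SD, n = 4), with Cd68 and Csf1r called lower. For comparison with the calls in this and the next lists, 4.68% of all tested genes were called lower and 5.04% higher. Cholangiocyte markers, with the most reads on Spp1, averaged 1064 ± 465 and 777 ± 428 CPM with Cldn4 called lower. The 6 hepatocyte markers, with the most reads on Alb, averaged 58224 ± 5230 and 83778 ± 20621 CPM, were higher in INT-767 mice 1 to 3 than in any vehicle mouse, and included no called gene. The part of these cell types in the levels of the elastic fibre genes was not tested.

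**Figure D4:**
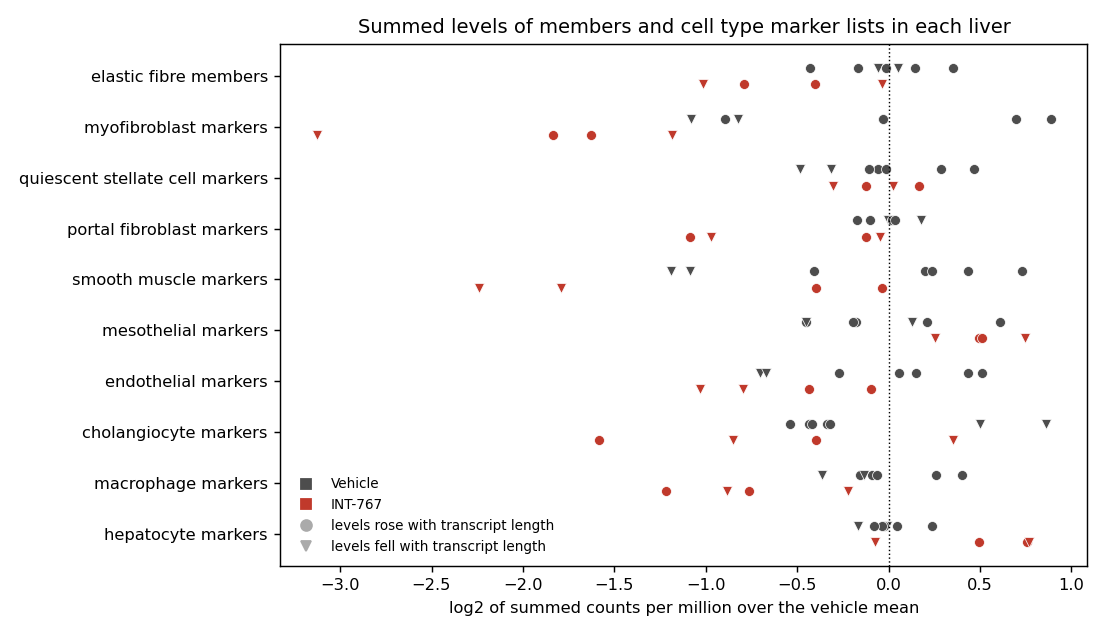
Summed CPM of the 10 elastic fibre members and of 9 cell type marker lists in each liver, as log2 of the sum over the vehicle mean; each point is a mouse, and triangles are the 4 mice whose levels fell with transcript length. Myofibroblast sums separate the groups, and quiescent stellate cell sums overlap.

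The annotation limits some of these counts. Exons of Gm9913 on the opposite strand cover 20.1% of the exon bases of Fbn1, and that gene had 0 reads with vehicle and 1 with INT-767. Whether Fbn1 reads in this overlap were counted or left out was not tested. Of the 75-base windows of Fbn1 transcripts, 19.6% also occur in another annotated gene, against at most 2.39% for any other member. These windows were searched on both strands, so that the share can include the overlap with Gm9913. Efemp2 shares 4.57% of its exon bases with Mus81 on the other strand, which had 833 and 611 reads. Of the other genes named, Tagln has 67.9% of its exon bases covered on the opposite strand by Pcsk7 and Gm48529, of which Pcsk7 had 2357 and 1810 reads, Ctsl 26.8% by Gm47123 and Csf1r 15.1% by Hmgxb3, and how many reads these genes share was not tested.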

How the data were processed

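The data are bulk mRNA sequencing of 11 livers, grouped by the sample labels. Per the supplementary methods, the authors used stranded libraries, 75 sequencing cycles and STAR alignment to GRCm38 (Ensembl release 84). The submitters' processing notes name STAR 2.4.0, whereas the supplementary methods name a later version of STAR. How reads were counted, with or without strand, is not given in the sources used here. What the authors deposited are raw read counts per gene, without normalization. Symbols are those of the table, and coordinates, exons, GC content and lengths come from GENCODE M21 (GRCm38).

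Counts were compared with edgeR 4.0.16 in R 4.3.3 (TMM, filterByExpr minimum count 10, minimum total 15, robust glmQLFit, glmQLFTest with treatment only). Of 46603 genes, 13880 were tested, with Benjamini-Hochberg adjustment over all of them and a threshold of 0.05. The exact Mann-Whitney test enumerated all 330 assignments. RPKM used the union of exons. Limits for a count of 0 are 3 reads. The GC content and length offset was a lowess (span 0.3) per library. Promoters are RefSeq windows. Copied libraries were looked for by chi-square within each group, and the closest pair differed by more than sampling noise (median 1.10 per gene). Mice were housed singly after the biopsy, no source used here gives extraction or sequencing batches, and p-values measure only the spread between these mice.

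The members, lists and tests were chosen with earlier results of these data known. All members are named, as is every called gene of the 7 related lists and the most abundant gene per kilobase of a list without a call; Lox, Mmp7, Mmp12, Ctsl, Mmrn2, the untested genes of these lists, Dcn, Acta2, Tagln and the genes under other observations were named after their values were seen. Fits restricted to 1 set of mice, or with the set as a term, were chosen after seeing the data. The alternatives were other scalings (RLE, library size only, upper quartile), other filters, the mouse number as a block, the offset with and without it, leaving out each mouse, limma-voom (limma 3.58.1) with and without sample weights, a threshold of 0.01, and DESeq2 1.42.0. All tools were first tested on simulated data, in which 200 of 13880 genes were changed by 2 on the log2 scale, up or down. With edgeR 86% of these were recovered and 5 unchanged genes were called, and with DESeq2 92.5% and 36. The other fits recovered between 72% and 86% and called 2 to 6 unchanged genes. No trend with transcript length or GC content was simulated.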

Additional observations from a re-analysis of the deposited data

Results flagged for a closer look

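Of the 19 groups of member levels checked for a mouse far from the rest, 1 stood out. Fbln5 was at 7.45 CPM in INT-767 2, whereas the other 3 treated mice lay between 11.5 and 11.8 CPM. The gap to the nearest mouse was 0.932 of the range of the group, above Dixon's critical value of 0.829 for 4 values. Chance alone marks about 1 in 20 such groups. INT-767 2 also had the lowest level of all mice for 6 of the 9 tested members, and without it the Fbln5 fold change was -0.58 on the log2 scale in place of -0.70 and did not pass (edgeR adjusted p = 0.0946), in a fit where the number of all genes called lower fell from 649 to 110.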

How the results depend on the processing

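The 8 members with a fold change below 0 stayed below 0 in every setting that tested them, and no setting called a member higher. The 6 members called lower became 0 with the mouse number as a block and 0 with the offset and the block (edgeR, with 5 and 4 members lower at an unadjusted p under 0.05, against 5.63% and 6.48% of genes), 3 in only the mice whose levels rose with transcript length, 1 in only those whose levels fell (Fbn2), 0 at a threshold of 0.01, and between 0 and 8 when each mouse was left out. The fewest remained without INT-767 2, and 2 and 3 without Vehicle 5 and Vehicle 6. Every other setting called between 4 and 8, with the 4 at a minimum of 10 counts in every mouse, where Eln, Fbn2 and Mfap2 had too few reads. Efemp1, at 0.30 on the log2 scale, lay between -0.054 (without INT-767 4) and 0.44 when each mouse was left out, and was -0.013 in only the mice whose levels fell with length, without passing the threshold in any setting. Fbn1 lost its call in 12 of 25 settings (not counting the stricter threshold), Fbln5 in 9, Mfap4 in 7, Eln in 6 of 24, and Fbn2 and Mfap2 in 5 each; the causes were not tested. Efemp2 passed in 8 of 25 settings and Emilin1 in 4.

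Of all genes, 700 were called higher and 649 lower. The numbers were 331 and 1026 with library size only, which moved the median of all genes to -0.22 on the log2 scale, and 467 and 812 with upper-quartile factors. They were 1069 and 825 with the offset, 1626 and 1182 with limma-voom and sample weights, 1443 and 1368 with DESeq2, 2039 and 1999 with the length trend class as a term, 130 and 94 in only the mice whose levels fell with length, 158 and 87 at a threshold of 0.01, and 0 and 0 with the block, with or without the offset (1682 and 1347 genes at an unadjusted p under 0.05). Leaving out each mouse gave 164 to 1906 higher and 110 to 1370 lower.

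Between mice with the same number in the 2 groups, deviations across genes correlated at -0.71, 0.23, 0.18 and -0.50 for numbers 1 to 4. These values cannot decide whether the numbers mark a pairing, which the sample labels do not state. Why the calls were lost under the block was not tested. The exact Mann-Whitney p of Efemp2 rose to 0.0667 without INT-767 1 or 2, and that of Emilin1 fell to between 0.0381 and 0.0424 in 4 settings. Fbn2 and Mfap2 rested on few reads, so that their fold changes are the least precise, with SEs of 0.60 and 0.42, and for Mfap5 no difference was detected at 14 reads in all.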

Other observations

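The 2 treated mice with Mfap5 reads were also those with the most Clec3b reads. Clec3b, one of the portal fibroblast markers and, like Mfap5, known from fibroblasts around large vessels, had 5 reads in INT-767 1 and 31 in INT-767 4, against 0 to 3 in every vehicle mouse and 1 and 0 in INT-767 2 and 3. Pi16, a further marker of such fibroblasts, was at 1.27 CPM in INT-767 4, above all other mice, but at 0.190 CPM in INT-767 1, within the vehicle range of 0.127 to 0.727 CPM. Thy1, another fibroblast marker, was at 0.973 CPM in INT-767 4, the lowest of all mice. INT-767 1 and 4 were also the 2 most deeply sequenced livers, with 16022459 and 15480608 reads. Vehicle 7, with 15295230 reads, had no read of Mfap5 or Clec3b. The part of sequencing depth in these counts was not tested. Mfap5, Clec3b and Pi16 had too few reads for the test. The choice to look at them was made after their values were seen.

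Efemp1 and Spp1 (osteopontin) were highest in the same 3 mice. The pair was not alone in this: among the listed genes, Mmp7, Itgav, Itga8, Itgb5, Itgb6, Itgb8, Lox and Cd34 were also highest in these 3 mice. Spp1 was at 1860 CPM in Vehicle 1, 1412 in Vehicle 7 and 1304 in INT-767 4, and between 319 and 774 CPM in the other 8. Of the further cholangiocyte markers, Krt19 was at 8.10, 12.4 and 5.54 CPM in Vehicle 1, Vehicle 7 and INT-767 4, and Epcam at 24.2, 34.1 and 15.1 CPM. Vehicle 7 had the highest level of both among all mice, whereas INT-767 4 was below the vehicle means of 8.80 and 21.9. All 3 mice are among the 4 whose levels fell with transcript length, and what links these values was not tested.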
